A study of Mus musculus with 12 samples.

Results

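The genes described here are Trp53, which encodes the transcription factor p53, its regulator Mdm2, and 8 genes that p53 is known to activate: Ccng1, Trp53inp1, Phlda3, Plk2, Aen, Eda2r, Bax and Bbc3. They were taken by symbol from a table of 55376 gene symbols and were measured by RNA-Seq in 12 samples. Of these 10 genes, 9 passed the filter on low counts (1 CPM or more in 4 or more of 12 samples) and were among the 17716 genes tested, and Eda2r did not pass it. CPM is the count of a gene relative to the total count of its sample in units of 1 M (mega), corrected here with TMM factors.

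The samples were oligodendrocytes sorted by FACS as live O1+ CD45- cells from C57BL/6 mouse brains at postnatal day 40. The paper does not exclude that a few cells of other types were sorted with them. There were 4 samples of each genotype, and each contained the cells of 2 brains. WT mice carried no mutation according to their label. In Cnp-Cre Jab1fl/fl mice (Jab1 mutants), Cre was driven by the Cnp promoter, which is active in late oligodendrocyte precursors and in oligodendrocytes. Deletion of Jab1 was thus directed at these cells, and Jab1 in other brain cells was not examined here. With a reporter gene, the paper found recombination in most but not all precursors and oligodendrocytes. Cnp-Cre Jab1fl/fl p21CIP1-/- mice (double mutants) carried the same Cre and floxed alleles and in addition a knockout of p21CIP1, encoded by Cdkn1a, which is not restricted to oligodendrocytes. A p21CIP1-/- genotype with intact Jab1 was not analysed here.

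In resting cells p53 is kept low because MDM2, a ubiquitin ligase, marks it for degradation. After DNA damage p53 is stabilized, mostly at the level of the protein, and activates genes of cell cycle arrest, of cell death and of its own control. Mdm2 and Ccng1 are such targets that feed back on p53, Bbc3 and Bax act on mitochondria in cell death, and Cdkn1a stops the cell cycle. JAB1 is a subunit of the COP9 signalosome, a protein complex that regulates ubiquitin ligases. The comparisons ask whether transcripts of the pathway differ in oligodendrocytes labelled as Jab1 mutant, in which the study investigated DNA damage and senescence, and whether they still differ in those labelled as also lacking p21CIP1.

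p53 binds a consensus of 2 decamers, each with C at position 4 and G at position 7. It was searched in RefSeq promoter windows of GRCm38.p6, from 250 bases before to 50 bases after each start, with a spacer of at most 3 bases between the decamers and at most 3 mismatches in 20 bases. The consensus equals its own reverse complement, so both strands were covered. A window was given for 9 of the 10 genes, and 5 of them (Trp53, Ccng1, Aen, Bax and Bbc3) held a match. Over all genes with a window the share was 6.564%. The match of Aen and a second match of Bbc3, each with 3 mismatches, are not printed. The sequences below are shown because they hold matches near RefSeq starts of genes whose transcripts are compared here. They are printed on the strand of the gene with the matching bases in capitals:
Ccng1: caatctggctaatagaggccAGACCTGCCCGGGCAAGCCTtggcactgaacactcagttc
Bax: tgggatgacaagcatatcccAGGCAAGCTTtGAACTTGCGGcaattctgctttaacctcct
Bbc3: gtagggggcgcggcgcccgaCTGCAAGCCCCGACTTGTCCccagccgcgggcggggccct
Trp53: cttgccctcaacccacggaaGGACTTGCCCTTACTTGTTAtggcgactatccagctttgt

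The Ccng1 sequence lies at chr11:40755442-40755501 on the reverse strand, and its match had 1 mismatch. The Bax sequence lies at chr7:45467059-45467119 on the reverse strand and had 2 mismatches with a spacer of 1 base. The Bbc3 sequence at chr7:16309466-16309525 and the Trp53 sequence at chr11:69580264-69580323 are on the forward strand, and each had 3 mismatches. The Bbc3 stretch lies before one of the RefSeq starts of Bbc3 but inside the span that GENCODE gives for the gene. The windows of Mdm2, Phlda3, Plk2 and Eda2r held no match. A match describes letters only, and the well-known p53 sites of Mdm2 lie in an intron, outside such a window. Of the 5 genes with a match, only Trp53 was called by edgeR in a comparison below, and Plk2, which had no match, was called as well.

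The 12 samples had total counts from 61485556 to 153495112, at which counting error is small beside the spread between samples. Before the p53 genes were compared, the cell type was checked with marker lists. The summed level of 10 genes of mature oligodendrocytes was 46772 to 110198 CPM in WT, 8377 to 35159.9 in Jab1 mutants and 16469 to 52913 in double mutants, and 5 of the 10 fell in Jab1 mutants. Of 20 microglia genes 19 rose in Jab1 mutants, from sums of 161 to 399 CPM in WT to 1399.6 to 3423 CPM, and in double mutants the sums were 556 to 23969 CPM, the highest being replicate 3. Ptprc, which encodes CD45 and was chosen after its values were seen, was at 0 to 1.57 CPM in WT, 31.7 to 100.2 CPM in Jab1 mutants and 3.20 to 97.9 CPM in double mutants. Of 10 endothelial genes 8 rose in Jab1 mutants, and their sums were 424 to 1019.8 CPM in WT, 1033 to 6951 CPM in Jab1 mutants and 797 to 7895 CPM in double mutants. Astrocyte genes, of which 0 of 10 were called by edgeR in Jab1 mutants (1 higher and 3 lower at an unadjusted p below 0.05, and the count by other tools was not computed), summed to 6459 to 15547 CPM in WT, 3531 to 8841 CPM in Jab1 mutants and 4258 to 11434 CPM in double mutants. The mural list had 5 of 8 genes higher in Jab1 mutants than in WT. Of 8 genes of oligodendrocyte precursors 1 (Cspg4) was called higher in Jab1 mutants. Their fitted log2 fold changes were above 0 for 7 and below 0 for 1, with a median of 1.39. Among the genes tested, 1 of 4 of macrophages and monocytes (Mrc1) and 1 of 3 of T cells (Trbc2) were called higher in Jab1 mutants. Of 6 choroid plexus genes 1 (Ttr) was called higher in Jab1 mutants, and their sums of 308 to 4139 CPM in WT did not overlap with those of 6425 to 22684 CPM in Jab1 mutants and 5420.4 to 22905 CPM in double mutants. For neuron genes (0 of 9 tested were called by edgeR in Jab1 mutants, with 3 higher at an unadjusted p below 0.05) the sums were 160 to 277 CPM in WT, 229 to 760 CPM in Jab1 mutants and 240 to 730.4 CPM in double mutants. For erythroid genes (0 of 5 called, with 4 higher at an unadjusted p below 0.05) they were 918 to 11355 CPM, 5207 to 85093 CPM and 4217 to 22748 CPM. Of 14 genes of the integrated stress response, 4 were called higher and 2 lower in Jab1 mutants than in WT. Fitted log2 fold changes were above 0 for 11 and below 0 for 3, with a median of 1.44. The sums were 1184 to 2072 CPM in WT, 697 to 1467 CPM in Jab1 mutants and 856 to 1709 CPM in double mutants. The 2 lower genes, Psat1 and Phgdh, had the highest WT counts of the list and so weigh most in its WT sums. This list shares Bbc3 with the genes described here, and Sesn2, Ddit4 and Gdf15 with the other p53 targets below. Genes of the immediate early response, which can be induced by dissociation of tissue, were higher for 6 of 11 tested, with sums of 327 to 510.04 CPM in WT, 738 to 1123 CPM in Jab1 mutants and 672 to 1064 CPM in double mutants. None of the genes of these lists was at 0 in every sample. The part of these differences in the results below was not tested.

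**Figure D1:**
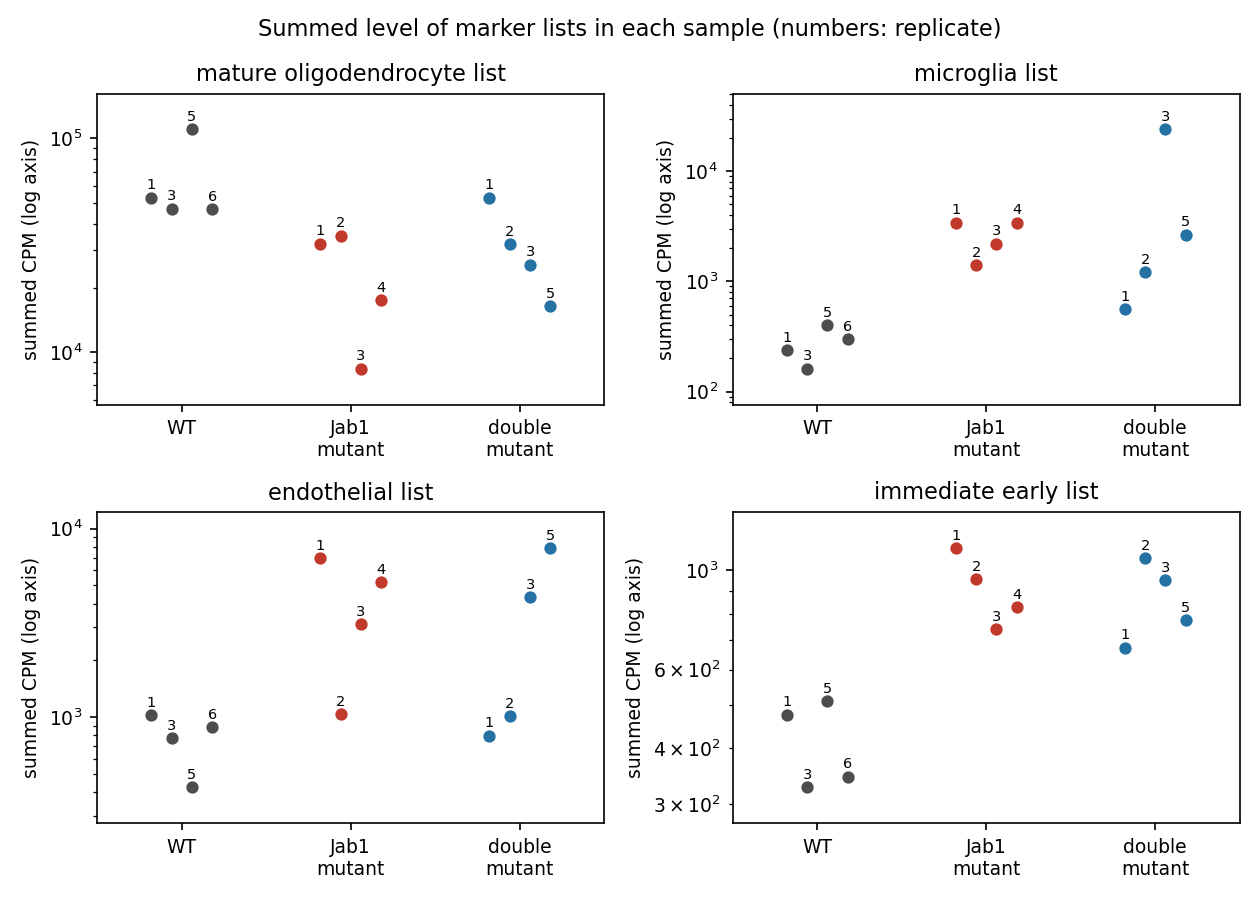
Summed CPM of 4 marker lists on log axes, with 1 point per sample and its replicate number, for WT, Jab1 mutants and double mutants (n = 4 each). The microglia sums of all mutant samples lie above those of WT, and the endothelial sums of Jab1-mutant replicate 2 and of double-mutant replicates 1 and 2 lie next to those of WT.

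The genes targeted in these mice were examined first. Cops5, the gene of JAB1, was at 139, 48.4, 135 and 107 CPM in WT replicates 1, 3, 5 and 6, at 86.1, 65.3, 63.8 and 42.5 CPM in Jab1-mutant replicates 1 to 4 and at 47.8, 45.6, 87.5 and 51.2 CPM in double-mutant replicates 1, 2, 3 and 5. The genotypes overlapped, with a log2 fold change of -0.62 (SE 0.36, adjusted p = 0.349, edgeR) for Jab1 mutants and of -0.82 (SE 0.39, adjusted p = 0.424, edgeR) for double mutants against WT. Cdkn1a was at 89.0, 45.2, 17.0 and 22.2 CPM in WT, 366, 398, 369 and 603 CPM in Jab1 mutants and 85.4, 106, 98.0 and 63.3 CPM in double mutants. All Jab1-mutant samples were above all others. The log2 fold change of Cdkn1a was 3.44 (SE 0.53, adjusted p = 0.0044, edgeR) in Jab1 mutants against WT and -2.35 (SE 0.32, adjusted p = 0.0916, edgeR) in double mutants against Jab1 mutants. In double mutants against WT it was 1.08 (SE 0.48, adjusted p = 0.394, edgeR), with means of 88.3 and 43.4 CPM, so the samples labelled p21CIP1-/- contained Cdkn1a transcripts at a fitted level 2.11-fold that of WT, a difference that did not pass the test. Counts of a whole gene do not separate deleted exons from the others, and 273 exon bases of Cdkn1a are shared with AC167363.2 on the other strand. In these counts the labels were thus not checked by either gene. By qPCR of sorted oligodendrocytes, the paper reports lower Cops5 in Jab1 mutants and no detectable Cdkn1a in double mutants.

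Of the 9 p53 genes tested, Trp53 and Plk2 rose in Jab1-mutant as compared with WT samples, and 0 fell at an adjusted p below 0.05. In the same comparison 5.19% of all genes tested were called higher and 2.46% lower. Transcripts of Trp53 were about 2.09-fold and those of Plk2 about 2.86-fold more abundant. The other 7 did not pass the test, and Phlda3 was the only one of the 9 with a fitted log2 fold change below 0. The median over the 9 was 0.46, against 0.02 over all genes tested. At an unadjusted p below 0.05, 3 were higher and 1 was lower, where 22.5% of all genes were called in either direction.

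Trp53, on chromosome 11 from 69580359 to 69591873 of GRCm38, was at 46.5, 38.7, 48.0 and 39.1 CPM in WT replicates 1, 3, 5 and 6. It was at 71.2, 81.1, 67.9 and 110.4 CPM in Jab1-mutant replicates 1 to 4 and at 61.5, 63.8, 86.3 and 129.8 CPM in double-mutant replicates 1, 2, 3 and 5. The 8 mutant samples were all above the 4 WT samples, and the 2 mutant genotypes overlapped. In bulk samples, a higher level per cell and a larger share of cells with a high level cannot be told apart. The log2 fold change against WT was 1.06 (SE 0.27, adjusted p = 0.0360, edgeR) in Jab1 mutants. It was 1.05 (SE 0.31, adjusted p = 0.208, edgeR) in double mutants, which did not pass the test. Both comparisons share the WT samples. Between double mutants and Jab1 mutants the log2 difference was 0.00, with a 95% confidence interval from -0.74 to 0.74. Trp53-ps, a pseudogene of Trp53, had 4 to 66 counts per sample, against 3523 to 12669 counts of Trp53. The call of Trp53 in Jab1 mutants was kept in 1 of the 8 fits that left out 1 sample, the one without Jab1-mutant replicate 2, and lost in the others (adjusted p from 0.0394 to 0.113, edgeR), with a log2 fold change from 0.86 to 1.13.

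Mdm2, the ubiquitin ligase that controls p53, lies on chromosome 10 from 117688875 to 117710758. It was at 52.1, 89.9, 109.5 and 62.8 CPM in WT, 92.7, 173, 58.1 and 84.1 CPM in Jab1 mutants and 89.8, 212, 52.4 and 45.3 CPM in double mutants, in the order of replicates given for Trp53. The genotypes overlapped, and the highest sample of both mutant genotypes was replicate 2. The fitted log2 fold change of Mdm2 was 0.49 (SE 0.37, adjusted p = 0.487, edgeR) in Jab1 mutants and 0.38 (SE 0.47, adjusted p = 0.792, edgeR) in double mutants against WT. The second became -0.25 without double-mutant replicate 2. Double-mutant replicate 5 had the highest Trp53 level of the 12 samples and the lowest Mdm2 level.

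**Figure D2:**
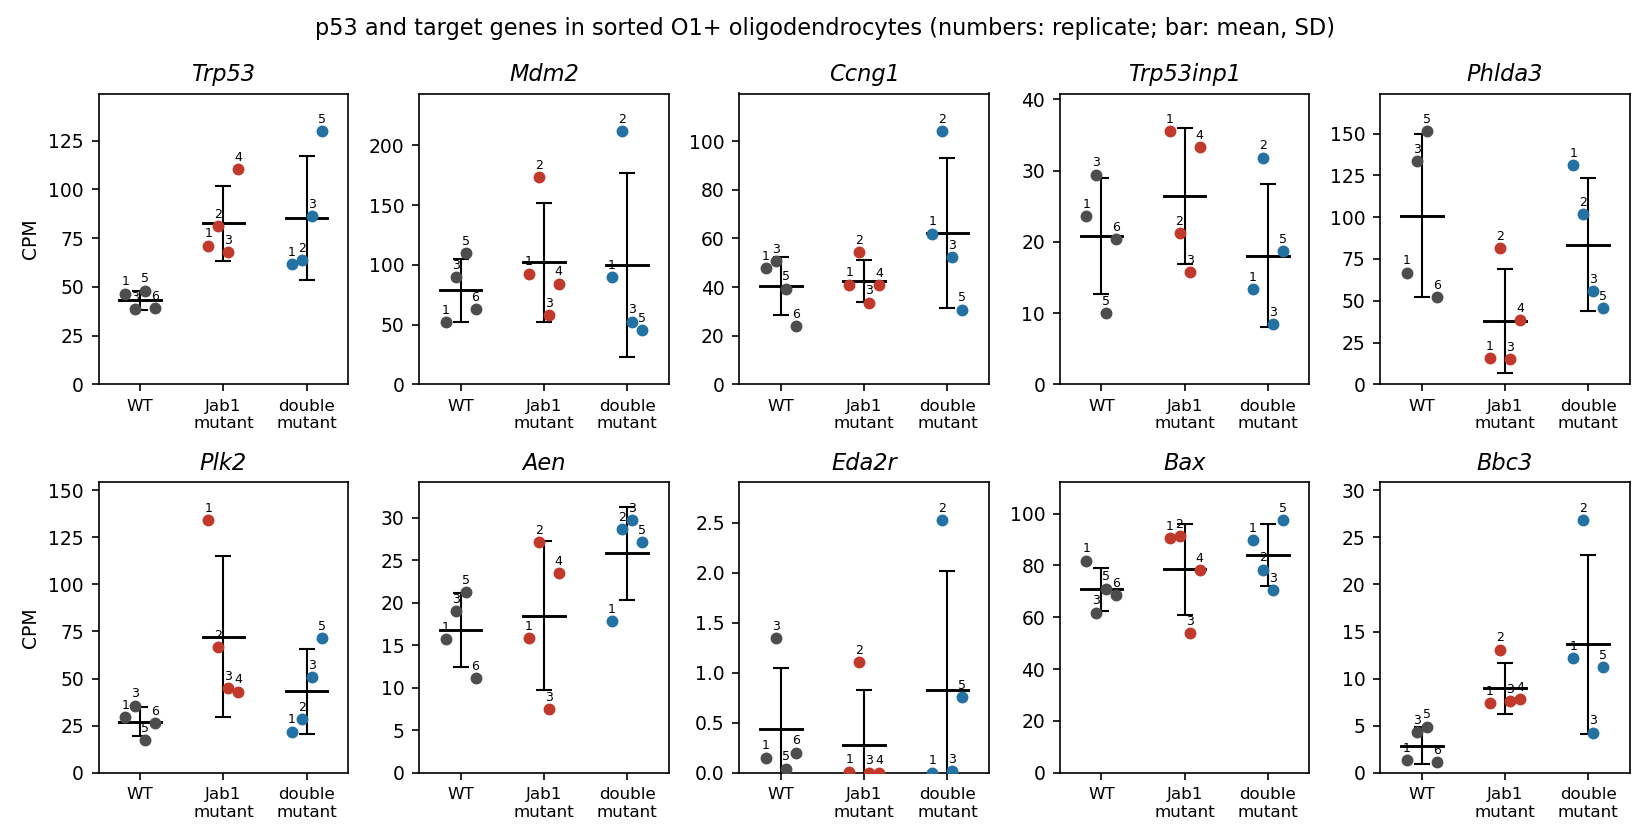
CPM of the 10 genes in each sample of WT, Jab1 mutants and double mutants (n = 4 each), with the replicate number above each point, a horizontal bar at the mean and error bars of 1 SD, which are cut off at 0 for Eda2r. All 8 mutant samples of Trp53 lie above the WT samples, whereas the 3 genotypes overlap for Mdm2, Ccng1, Trp53inp1, Aen and Bax.

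Ccng1 and Trp53inp1 act on p53 in turn. Cyclin G1, the product of Ccng1, recruits a phosphatase to MDM2, and TP53INP1 promotes phosphorylation of p53 and cell death. Ccng1, on chromosome 11 from 40748552 to 40755311, is the gene with the closest promoter match above. It was at 47.7, 50.7, 39.4 and 23.9 CPM in WT, 41.0, 54.4, 33.5 and 40.7 CPM in Jab1 mutants and 62.0, 104.0, 52.3 and 30.6 CPM in double mutants. In Jab1 mutants 3 of 4 samples were within the range of WT and replicate 2 was above it, with a log2 fold change of 0.18 (95% confidence interval -0.49 to 0.86). In double mutants 3 of 4 samples were above all WT samples and 1 was not, with a log2 fold change of 0.67 (SE 0.39, adjusted p = 0.517, edgeR). Trp53inp1, on chromosome 4 from 11156431 to 11174379, was at 23.6, 29.4, 9.98 and 20.3 CPM in WT, 35.5, 21.2, 15.7 and 33.3 CPM in Jab1 mutants and 13.4, 31.8, 8.43 and 18.6 CPM in double mutants. The 3 genotypes overlapped, and neither mutant passed the test against WT, with log2 fold changes of 0.46 in Jab1 mutants and -0.17 in double mutants.

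Plk2 and Phlda3 act on growth and survival signals. Plk2 encodes a polo-like kinase that is induced by stress, and Phlda3 encodes a repressor of AKT. Plk2, on chromosome 13 from 110395046 to 110400844, was at 29.6, 35.6, 17.4 and 26.2 CPM in WT and 134, 66.6, 44.8 and 43.0 CPM in Jab1 mutants. All Jab1-mutant samples were above all WT samples, and replicate 1 was the highest. The log2 fold change of Plk2 was 1.52 (SE 0.41, adjusted p = 0.0457, edgeR). In double mutants Plk2 was at 21.8, 28.5, 50.8 and 71.4 CPM, where replicates 1 and 2 were within the range of WT and replicates 3 and 5 above it. The log2 fold change was 0.74 (SE 0.42, adjusted p = 0.517, edgeR) against WT and -0.77 (95% confidence interval -1.84 to 0.30) against Jab1 mutants. The call in Jab1 mutants was lost in all 8 fits without 1 sample, in which the log2 fold change was 1.03 to 1.68 and the adjusted p 0.0501 to 0.124 (edgeR), the smallest change being that without Jab1-mutant replicate 1. Double-mutant replicates 3 and 5 were also those with endothelial sums of 4332 and 7895 CPM, against 797 and 1012 CPM in replicates 1 and 2. In Jab1 mutants, where Plk2 was called, the endothelial sums were 6951, 1033, 3109.8 and 5183 CPM in replicates 1 to 4. There replicate 2 had the lowest sum and the next to highest Plk2 level, and replicate 4 had the lowest Plk2 level. In double mutants Trp53 had the same order as the endothelial sums, at 61.5, 63.8, 86.3 and 129.8 CPM in replicates 1, 2, 3 and 5. In Jab1 mutants it did not, at 71.2, 81.1, 67.9 and 110.4 CPM in replicates 1 to 4. A relation between the endothelial sums and Plk2 or Trp53 was not tested.

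Phlda3, on chromosome 1 from 135766119 to 135769136, was at 66.8, 134, 151 and 52.2 CPM in WT, 15.8, 81.4, 14.9 and 38.5 CPM in Jab1 mutants and 131, 102, 55.7 and 45.7 CPM in double mutants. In Jab1 mutants 3 of 4 samples were below all WT samples, and replicate 2 was within the range of WT. The log2 fold change was -1.32 (SE 0.55, adjusted p = 0.181, edgeR), which did not pass the test. Of the 8 fits that left out 1 sample, only 1 passed, that without replicate 2 of Jab1 mutants (log2 fold change -1.99, adjusted p = 0.0330, edgeR). Over these 8 fits the log2 fold change was -1.99 to -1.06 and the adjusted p 0.0330 to 0.375 (edgeR). In double mutants Phlda3 overlapped with WT and had a log2 fold change of -0.23 (SE 0.43, adjusted p = 0.875, edgeR), and against Jab1 mutants it was 1.11 (95% confidence interval -0.12 to 2.34).

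The remaining 4 genes act in cell death. BBC3, also called PUMA, releases BAX to permeabilize mitochondria, AEN is a nuclease and EDA2R is a receptor of the TNF family. Bbc3, on chromosome 7 from 16308393 to 16318205, was at 1.30, 4.28, 4.88 and 1.10 CPM in WT, 7.43, 13.1, 7.60 and 7.81 CPM in Jab1 mutants and 12.2, 26.9, 4.25 and 11.2 CPM in double mutants. All Jab1-mutant samples were above all WT samples, which was so for 3 of the 9 genes tested (Trp53, Plk2 and Bbc3). For 17.7% of all genes tested the groups did not overlap in one direction or the other. The log2 fold change of Bbc3 was 1.75 (SE 0.67, adjusted p = 0.146, edgeR) in Jab1 mutants and 2.28 (SE 0.72, adjusted p = 0.226, edgeR) in double mutants, and neither passed the test. In double mutants replicate 3 was at the level of the higher WT samples.

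Bax, on chromosome 7 from 45461697 to 45466898, was at 81.8, 61.8, 71.0 and 68.5 CPM in WT, 90.5, 91.3, 53.9 and 78.2 CPM in Jab1 mutants and 89.8, 78.4, 70.4 and 97.5 CPM in double mutants. The genotypes overlapped, and the log2 fold change against WT was 0.26 (95% confidence interval -0.32 to 0.84) in Jab1 mutants and 0.30 (95% confidence interval -0.25 to 0.85) in double mutants. The count of Bax is uncertain, as it shares 192 exon bases with Gm45808 on the same strand. Aen, on chromosome 7 from 78895854 to 78911209, was at 15.8, 19.0, 21.2 and 11.2 CPM in WT, 15.9, 27.2, 7.45 and 23.5 CPM in Jab1 mutants and 17.8, 28.6, 29.8 and 27.2 CPM in double mutants. In double mutants 3 of 4 samples of Aen were above all WT samples, with a log2 fold change of 0.68 (SE 0.35, adjusted p = 0.457, edgeR). In Jab1 mutants its samples lay on both sides of the WT range, with a log2 fold change of 0.25 (SE 0.44, adjusted p = 0.795, edgeR).

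Eda2r, on chromosome X from 97333840 to 97377216, was close to the limit of detection in most samples. It had 16, 199, 4 and 18 counts in WT, 1, 133, 0 and 0 counts in Jab1 mutants and 0, 310, 2 and 74 counts in double mutants. A few samples in each genotype carried nearly all of its counts, and replicate 2 was the highest of both mutant genotypes. In a fit without the filter its log2 fold change was -0.63 (SE 2.0) in Jab1 mutants and 0.92 (SE 1.81) in double mutants against WT, with adjusted p values of 0.884 and 0.845 (edgeR), so that no difference was detectable at these counts.

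**Figure D3:**
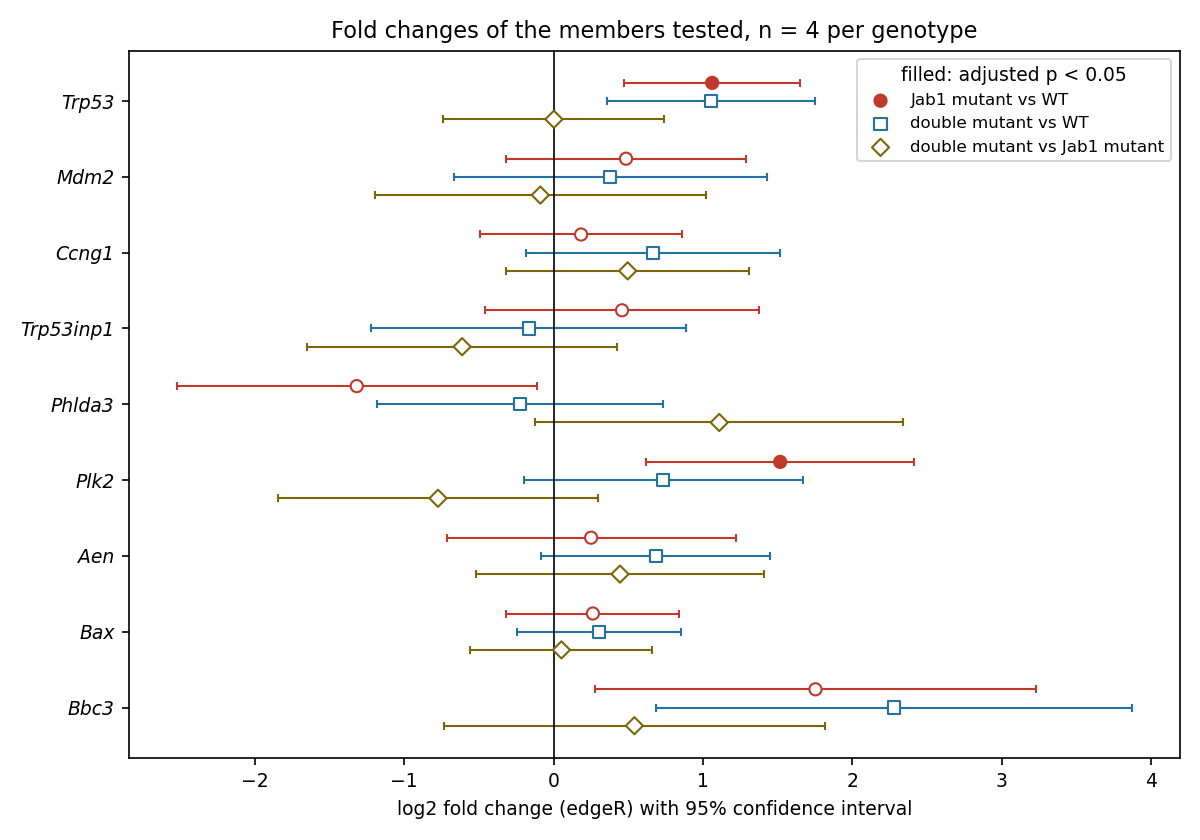
Log2 fold change of the 9 genes tested, with 95% confidence intervals from edgeR, for Jab1 mutants against WT, double mutants against WT and double mutants against Jab1 mutants (n = 4 per genotype). Filled symbols, those of Trp53 and Plk2 in Jab1 mutants, have an adjusted p below 0.05, and all intervals of the third comparison include 0.

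In double mutants 0 of the 9 genes passed the test against WT, while 2 (Trp53 and Bbc3) had an unadjusted p below 0.05. Of all genes tested 0.175% were called higher and 0.0169% lower in this comparison, and 12.4% had an unadjusted p below 0.05. The fold change fitted was above 0 on the log2 scale for 7 of the 9 genes, with a median of 0.67, against 0.00 over all genes. Trp53 was the only one of the 9 with no overlap between groups, as were 8.15% of all genes. In DESeq2, Trp53 (log2 fold change 1.08, adjusted p = 0.0446) and Bbc3 (log2 fold change 2.30, adjusted p = 0.0281) passed the threshold. Because the WT samples are shared, these values are not independent of those of Jab1 mutants.

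Between double mutants and Jab1 mutants 0 of the 9 genes passed the test, in edgeR as in DESeq2 and limma-voom, and 0 had an unadjusted p below 0.05. For all genes tested edgeR gave 0% in either direction, 5% had an unadjusted p below 0.05, and 3.26% had no overlap between groups, of which 0 were among the 9. The difference was above 0 for 6 of the 9, with a median of 0.05, against 0.02 over all genes. The 95% confidence intervals were wide, so that the data do not show that the 2 genotypes are alike: for Mdm2 the interval was -1.20 to 1.02 and for Bbc3 -0.73 to 1.82 on the log2 scale.

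The order of the genes was compared as CPM per kb of exons, which corrects for gene length. In WT, Bax (81.6 ± 9.58 CPM per kb, SD, n = 4) and Phlda3 (70.4 ± 34) were highest and overlapped. Mdm2 (25 ± 8.29) and Trp53 (23.1 ± 2.6) followed and overlapped with each other, and then came Ccng1 (11.5 ± 3.42) and Plk2 (9.71 ± 2.72). Trp53inp1 (3.85 ± 1.51), Aen (3.27 ± 0.85), Bbc3 (1.59 ± 1.08) and Eda2r (0.0905 ± 0.127) were the lowest. Neighbours that did not overlap in WT were Phlda3 and Mdm2, Trp53 and Ccng1, Plk2 and Trp53inp1, and Bbc3 and Eda2r. In Jab1 mutants Bax remained highest at 90.5 ± 20.1 CPM per kb (SD, n = 4) and did not overlap with Trp53, which came next at 44.2 ± 10.3. There Trp53, Mdm2, Phlda3 and Plk2 each overlapped with the next gene, Phlda3 being at 26.2 ± 21.7. In double mutants Bax was at 96.9 ± 13.9 CPM per kb (SD, n = 4), Phlda3 at 58.3 ± 27.9 and Trp53 at 45.7 ± 16.9, and each overlapped with the next.

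Within a genotype, some of the 9 genes were high in the same sample. In Jab1 mutants, replicate 2 was the highest of the 4 samples for 6 of the 9 genes (Mdm2, Ccng1, Phlda3, Aen, Bax and Bbc3) and for 29.7% of all genes tested, and replicate 3 was the lowest for 7 of the 9 and for 23.3% of all genes. In double mutants, replicate 2 was the highest for 4 of the 9 (Mdm2, Ccng1, Trp53inp1 and Bbc3) and for 28.4% of all genes. The 42 other p53 targets described below did not follow this order, since replicate 2 of Jab1 mutants was the highest for 10 and the lowest for 14 of them, and replicate 2 of double mutants the highest for 14 and the lowest for 10. In neither genotype was replicate 2 the highest for Trp53 itself, which was highest in replicate 4 of Jab1 mutants and replicate 5 of double mutants. The highest sample of Mdm2 exceeded the lowest by 2.10-fold in WT, 2.98-fold in Jab1 mutants and 4.67-fold in double mutants. For Trp53 these ratios were 1.24, 1.62 and 2.11. Replicate 2 of Jab1 mutants also had the lowest microglia (1399.6 CPM) and endothelial (1033 CPM) sums and the highest sum of mature oligodendrocyte genes (35159.9 CPM) of its genotype. It also had the highest sum of neuron genes (760 CPM, against 229 to 271 CPM in the other 3) and of genes of the integrated stress response (1467 CPM, against 697 to 956 CPM). Replicate 3 had the lowest sum of mature oligodendrocyte genes (8377 CPM). In double mutants, replicate 2 had a microglia sum of 1213 CPM and an endothelial sum of 1012 CPM, and each was the next to lowest of its genotype. These sums were not tested against the p53 genes.

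**Figure D4:**
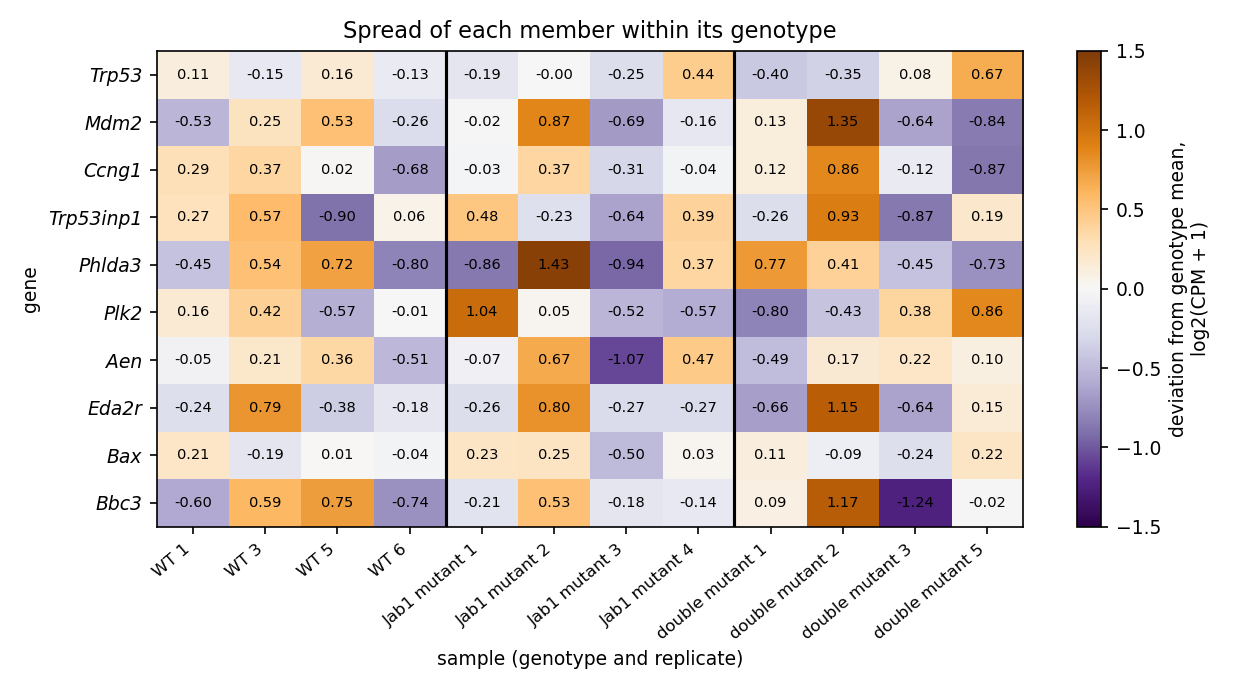
Deviation of each gene in each sample from the mean of its genotype on the log2(CPM + 1) scale, with the value in each cell, brown for higher and purple for lower. Replicate 2 of Jab1 mutants and replicate 2 of double mutants hold the highest values of Mdm2 in their genotypes (0.87 and 1.35).

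Among genes outside this group with a mean level of 10 CPM or more, those whose pattern over the 12 samples was most like the mean z-score of the 9 genes were Ppp1r15a (Pearson's r 0.87), 2310022A10Rik (0.86), Cmip (0.85), Bace2 (0.85) and Lmna (0.83), of 10433 genes ranked. The samples share genotype and cell composition, so these values describe likeness and no p is given. Ppp1r15a, also called Gadd34, encodes a phosphatase subunit of the stress response, and Lmna encodes the nuclear lamins A and C. Ppp1r15a was at 30.5, 27.0, 37.7 and 19.4 CPM in WT, 106, 232, 57.7 and 161 CPM in Jab1 mutants and 101, 293, 54.3 and 102 CPM in double mutants, and it was also highest in replicate 2 of both mutant genotypes.

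The pathway around these genes was taken from a list of 43 other p53 targets, of which 42 were tested. In Jab1-mutant as compared with WT samples, 4 of them rose, among them Cdkn1a, Fas and Btg2, and 1 fell (Cd82), against 5.19% and 2.46% of all genes. Of the 42, 26 had a fitted log2 fold change above 0, with a median of 0.74. Fas, a death receptor, was at 14.3, 10.3, 5.39 and 5.54 CPM in WT and 66.6, 18.2, 32.1 and 39.1 CPM in Jab1 mutants, a log2 fold change of 2.26 (SE 0.49, adjusted p = 0.0197, edgeR). Btg2, which restrains proliferation and belongs to the immediate early genes as well, was at 52.8, 33.5, 29.1 and 40.0 CPM in WT and 139, 71.8, 73.3 and 84.7 CPM in Jab1 mutants, a log2 fold change of 1.37 (SE 0.32, adjusted p = 0.0286, edgeR). Neither Fas nor Btg2 overlapped between these genotypes. Cd82, a tetraspanin that restrains cell migration, was at 209, 420.4, 549 and 185 CPM in WT and 36.8, 75.9, 24.7 and 33.9 CPM in Jab1 mutants. All Jab1-mutant samples of Cd82 were below all WT samples, with a log2 fold change of -2.88 (SE 0.46, adjusted p = 0.0054, edgeR).

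Of 28 regulators and partners of p53, 26 were tested. In Jab1 mutants 0 rose and 1 fell, against 5.19% and 2.46% of all genes, and the median log2 fold change was -0.07. The one that fell was Trp53bp2, whose product ASPP2 directs p53 to genes of cell death. It was at 118, 157, 155 and 111 CPM in WT and 62.2, 75.2, 41.3 and 48.1 CPM in Jab1 mutants, with no overlap and a log2 fold change of -1.14 (SE 0.28, adjusted p = 0.0321, edgeR). Mdm4, the partner of MDM2, had a log2 fold change of -0.33 and the kinase gene Atm one of -0.10, and neither passed the test. Both were chosen after their values were seen.

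In double mutants against WT, 0 of the 42 other targets and 0 of the 26 regulators passed the test, while 7 targets were higher and 2 lower, and 1 regulator was higher and 3 were lower, at an unadjusted p below 0.05, as were 12.4% of all genes in either direction. In DESeq2, 4 genes of both lists together passed it. The targets with the smallest p were Cd82, Gdf15 and Gadd45a. Cd82 was at 143, 112, 89.9 and 77.3 CPM in double mutants, with no overlap with either other genotype and a log2 fold change of -1.64 (SE 0.40, adjusted p = 0.133, edgeR). Gdf15, which encodes a secreted stress cytokine, was at 13, 33.1, 8.42 and 3.24 CPM in double mutants and at 0.00945, 0.182, 0.0210 and 0.989 CPM in WT (adjusted p = 0.145, edgeR). Gadd45a, a gene induced by growth arrest and DNA damage, had a log2 fold change of 1.86 (SE 0.57, adjusted p = 0.218, edgeR). Among the regulators, those with the smallest p were Rpl5, Wrap53 and Trp53bp1, with log2 fold changes of 1.18, -1.38 and -1.09 and adjusted p values of 0.241, 0.328 and 0.334 (edgeR).

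In double mutants against Jab1 mutants, 0 genes of both lists passed the test in edgeR, while 2 targets were higher and 2 lower, and 2 regulators were lower, at an unadjusted p below 0.05, as were 5% of all genes in either direction. Cdkn1a, the target that the p21CIP1-/- genotype concerns, had the smallest p (1.55e-05, adjusted p = 0.0916, edgeR) and was the 1 gene of both lists that passed in DESeq2 and limma-voom. Ercc5, an endonuclease gene of nucleotide excision repair, followed with a log2 fold change of -1.33 (SE 0.35, adjusted p = 0.713, edgeR) and Cd82 with 1.26 (SE 0.38, adjusted p = 0.838, edgeR). For the regulators the smallest p values were those of Ep300, Usp7 and Taf9, with log2 fold changes of -1.08, -0.83 and -2.66 and adjusted p values of 0.902, 0.962 and 0.968 (edgeR). Ep300 encodes an acetyltransferase and Usp7 a deubiquitinase that act on p53, and Taf9 encodes a subunit of the general transcription machinery. Genes not tested, because they did not pass the filter on low counts, were Dram1 among the targets and Ppp1r13l and Trp73 among the regulators.

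**Figure D5:**
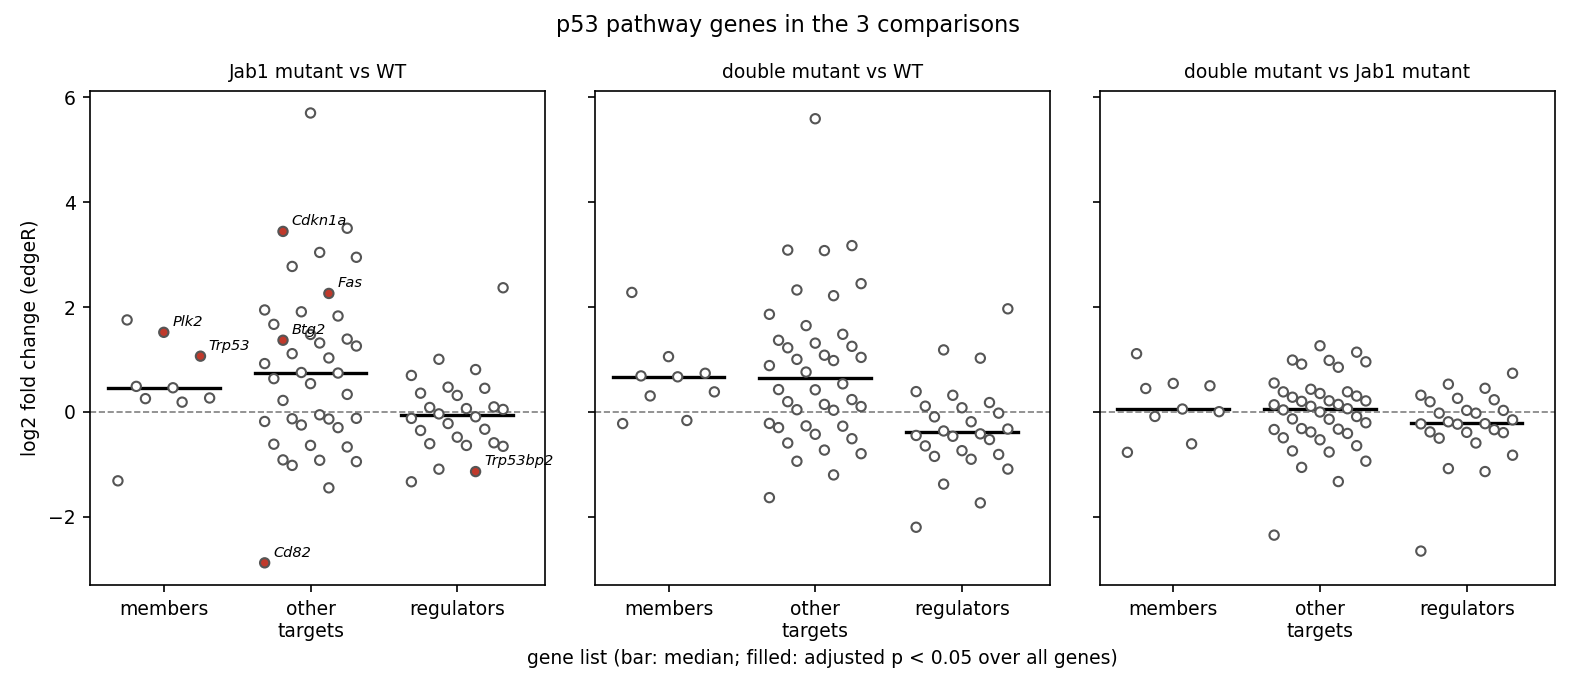
Fitted log2 fold change of the 9 p53 genes tested, other p53 targets and regulators in the 3 comparisons, with 1 point per gene reported and a bar at the median of each whole list. Filled points passed the test over all genes at 0.05, and in edgeR they appear only in Jab1 mutants against WT.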

How the data were processed

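RNA of O1+ CD45- cells from 12 samples was amplified with a SMART-Seq v4 kit and sequenced as paired ends. The authors used Trimmomatic 0.32 for trimming, STAR 2.5.3a for alignment to GRCm38 and featureCounts with GENCODE basic gene models for counting. They deposited unnormalized counts, 1 row per symbol. Counting by strand and the handling of reads with several matches are not given in the sources used here, so counts of overlapping genes and pseudogenes are uncertain.

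Counts were tested here with edgeR 4.0.16 (quasi-likelihood test, TMM, R 4.3.3) in fits of the 8 samples compared, over 17716 genes (1 CPM or more in 4 or more of 12 samples), with Benjamini-Hochberg adjustment over all genes and a threshold of 0.05. Alternatives were DESeq2 1.42.0, limma-voom (limma 3.58.1), other scalings and filters, a minimum absolute log2 fold change of 1, all 12 samples in 1 fit, a replicate block, and each sample left out in turn. All limma-voom fits gave each sample a quality weight. Positions, exon overlaps and lengths are from GENCODE M21 and promoters from RefSeq. The scripts were tested on simulated data. Chi-square values per degree of freedom between samples of 1 genotype were 209.9 or more, so none was a repeat of another, and p-values measure only the spread between these pools of 2 brains.

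Members and gene lists were chosen with earlier results of these data known. Named were all 10 genes, the targeted genes Cops5 and Cdkn1a, up to 5 called genes per direction of each pathway list or else the 3 with the smallest p, marker genes a result turns on, and the 5 genes most alike. The single-gene result of 1 listed target is not reported or plotted here.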

Additional observations from a re-analysis of the deposited data

Results flagged for a closer look

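Within each genotype the highest and the lowest sample were compared with the other 3 by Dixon's ratio, the gap to the nearest sample divided by the whole range. Of 36 groups of 4 samples 3 were above the 95% critical value for 4 samples, where chance alone is expected to give about 1 in 20. In Jab1 mutants Eda2r had a ratio of 0.984, since replicate 2 had 133 counts and the others 0 or 1. Bbc3 had a ratio of 0.913 in the same genotype, with replicate 2 at 13.1 CPM and the others at 7.43 to 7.81 CPM. Cdkn1a had a ratio of 0.836, with replicate 4 at 603 CPM and the others at 366 to 398 CPM. Without any 1 sample, the log2 fold change of Cdkn1a in Jab1 mutants against WT stayed between 3.17 and 4.07 and was called by edgeR in all 8 fits (adjusted p from 0.0033 to 0.0197), and that of Bbc3 stayed between 1.49 and 2.12 and was called in 0 of 8.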

How the results depend on the processing

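For Jab1 mutants against WT, edgeR called 1354 genes, 2 of the 9 p53 genes and 6 other pathway genes. DESeq2 called 2689 genes (1687 higher and 1002 lower) and 14 pathway genes. With all 12 samples in 1 fit there were 0 of the 9 genes (adjusted p 0.0549 for Trp53 and 0.0689 for Plk2) and 3 pathway genes, and without the filter 0 of the 9. In limma-voom Bbc3 passed as well (log2 fold change 2.40, adjusted p = 0.0283). Leaving out 1 sample gave 678 (without WT replicate 5) to 1863 genes (without Jab1-mutant replicate 2), 0 to 2 of the 9, and 3 to 10 pathway genes.

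For double mutants against WT, edgeR called 34 genes and 0 of the p53 lists. DESeq2 called 862 genes (663 higher and 199 lower), 2 of the 9 and 4 pathway genes. There were 21 genes without the filter, 136 with a mean of at least 10 CPM, 164 with all 12 samples and 1 (without double-mutant replicate 2) to 274 (without double-mutant replicate 1) when a sample was left out. Phlda3 turned to 0.11 in limma-voom. For double mutants against Jab1 mutants, edgeR called 0 genes. DESeq2 called 87 genes, a mean of at least 10 CPM gave 5, limma-voom gave 1, and leaving out a sample gave 0 to 2. In DESeq2, in limma-voom and with a mean of at least 10 CPM, 1 pathway gene, Cdkn1a, was called. The log2 difference of Trp53 turned to -0.028 with upper-quartile scaling, -0.059 with a mean of at least 10 CPM and -0.0023 in limma-voom.

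With a sample left out, log2 values against WT turned in double mutants for Trp53inp1 (-0.54 to 0.073), Phlda3 (-0.52 to 0.061) and Mdm2 (-0.25 to 0.61), and against Jab1 mutants for Trp53 (-0.28 to 0.21), Mdm2 (-0.73 to 0.26) and Bax (-0.080 to 0.14). The cause of these changes was not tested.

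Same-numbered samples did not deviate together more than others (r from -0.19 to 0.084, against -0.24 to 0.33 for different numbers). Too few samples share a number for these values to show or exclude a pairing. With the replicate number as a block, which for Jab1 mutants against WT rests on 2 shared numbers, there were 660 genes, 1 of the 9 (Phlda3, log2 fold change -2.48, adjusted p = 0.0316, edgeR) and 2 pathway genes, with Ccng1 at -0.27, Trp53inp1 at -0.022 and Aen at -0.53. Under the block double mutants against WT gave 1 gene and Mdm2 at -0.35, and against Jab1 mutants Trp53 was at -0.12 and Bax at -0.0015.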
